A study of Mus musculus with 10 samples.

Results

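The semaphorin and plexin genes followed here in endothelial cells of mouse ear skin were chosen by name, with earlier results of these data known. These genes were matched to the count tables through Ensembl identifiers. They number 10, out of the 31 semaphorin, plexin and neuropilin genes listed here and of 46517 Ensembl genes counted. The ligands were *Sema3a*, *Sema3d*, *Sema3f*, *Sema3g*, *Sema6a* and *Sema7a*, and the receptors *Plxna1*, *Plxna2*, *Plxna4* and *Plxnd1*. The mutant group held 5 Cre-positive *Pik3ca*H1047R;*Cdh5-CreERT2* mice, in which 4-hydroxytamoxifen (4-OHT) had been applied to the ears at 3 wk of age to switch on an activated PI3-kinase transgene. The controls were 2 mice. Control 1 was of the C57BL/6J strain and received no treatment, whereas control 2, a Cre-negative *Pik3ca*H1047R;*Cdh5-CreERT2* littermate, was given 4-OHT. All 7 mice were 5 wk old when the skin was collected, and another control mouse of the study was not analysed here. *Cdh5* is active in all endothelium, so recombination was not limited to lymphatic vessels. The genotype of single cells is not known, and the transgene, which carries the chicken *PIK3CA* sequence, is not a row of the tables and could not be used to check the labels.

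Cells had been sorted with podoplanin and CD31 antibodies after removal of CD45-, CD11b- and Ter119-positive cells and sequenced along whole transcripts in 384-well plates. Of 3456 wells, 3248 passed the limits on reads and genes. A cell was taken as a lymphatic endothelial cell (LEC) when *Prox1*, *Flt4* and *Mmrn1* together reached at least 300 counts per 1000000 reads (CPM) and exceeded *Flt1*, *Emcn* and *Podxl*, and as a blood endothelial cell (BEC) in the reverse case. This gave 1641 LECs and 1490 BECs, with 175 to 367 LECs and 157 to 330 BECs per mouse. BECs with at least 50 CPM of *Gja5*, which encodes connexin 40, were called arterial and numbered 8 to 31 per mouse. Reads were summed over the cells of a class in each mouse, so that the mouse is the replicate, and the sums held 55616045 to 194353210 reads for LECs, 38402388 to 99630824 for BECs and 1961497 to 10727912 for arterial BECs. In such sums fewer expressing cells and less RNA per cell cannot be told apart. Markers that were not part of the rule followed the classes: the summed CPM of *Pdpn*, *Lyve1*, *Tbx1* and *Reln* was 2575 to 4298 in LECs and 39.9 to 235.7 in BECs. For *Plvap*, *Ly6c1*, *Cd34* and *Ptprb* it was 854 to 1417 in LECs and 5801 to 8178 in BECs. Leukocyte markers (*Ptprc*, *Cd68*, *Lyz2*, *Cd3e*, *Csf1r*) summed to at most 44.4 CPM in LECs and 12.6 CPM in BECs. Keratinocyte markers (*Krt5*, *Krt14*, *Krt10*, *Krt1*, *Dsp*) were higher, with 53.8 to 301.3 CPM in LECs and 10.6 to 547.7 CPM in BECs. Fibroblast and mural markers, named below, reached 386.0 and 145.0 CPM in LECs and 775.3 and 671.3 CPM in BECs.

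Semaphorins are guidance cues that act on vessels as well as on axons. The secreted class 3 members bind neuropilin-1 or neuropilin-2, which form a complex with plexins of class A or with plexin D1, and the plexin carries the signal into the cell by acting on small GTPases, integrin adhesion and the cytoskeleton. *Sema6a* encodes a transmembrane ligand of plexins A2 and A4, and *Sema7a* a membrane-anchored ligand that binds integrin β1 and plexin C1. In lymphatic vessels, signalling by Sema3a through neuropilin-1 and plexin A1 is known for its part in valve formation, and Sema3g from arteries for a part in vessel patterning through neuropilin-2 and plexin D1.

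The promoter sequences of 3 ligands are shown because these genes marked 3 different populations in the comparisons that follow: *Sema3d* the LECs, *Sema7a* the BECs and *Sema3g* the arterial BECs. Each is the stretch of 250 bases before the RefSeq start on GRCm38.p6, read 5′ to 3′ on the plus strand, with matches to the motifs named after it in capitals. *Sema3d* lies at chr5:12382916-12383165, *Sema3g* at chr14:31217623-31217872 and *Sema7a* at chr9:57939862-57940111.
Sema3d: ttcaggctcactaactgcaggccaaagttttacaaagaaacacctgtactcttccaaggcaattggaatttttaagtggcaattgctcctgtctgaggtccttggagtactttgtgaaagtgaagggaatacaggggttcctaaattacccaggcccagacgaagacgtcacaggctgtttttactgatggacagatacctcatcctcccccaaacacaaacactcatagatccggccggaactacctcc
Sema3g: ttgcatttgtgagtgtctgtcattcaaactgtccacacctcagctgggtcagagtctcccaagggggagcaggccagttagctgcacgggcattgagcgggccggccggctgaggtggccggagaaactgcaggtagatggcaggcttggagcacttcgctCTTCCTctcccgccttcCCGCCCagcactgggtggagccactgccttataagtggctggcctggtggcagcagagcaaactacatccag
Sema7a: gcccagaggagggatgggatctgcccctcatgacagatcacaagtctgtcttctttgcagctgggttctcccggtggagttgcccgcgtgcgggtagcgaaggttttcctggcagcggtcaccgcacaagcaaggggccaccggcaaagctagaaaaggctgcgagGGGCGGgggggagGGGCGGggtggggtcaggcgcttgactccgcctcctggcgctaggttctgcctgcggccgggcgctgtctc

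A set of 7 motifs was searched on both strands, none of which contains another. The GC box GGGCGG occurred 2 times before *Sema7a* and 1 time, in reverse, before *Sema3g*, and was present in 32.7% of the 32851 mouse promoters of this length. The ETS core AGGAAG occurred 1 time, in reverse, before *Sema3g* and in 29.5% of all promoters. The other motifs were not found in any of the 3 windows. Of these, the letters AGATAA, bound by GATA factors, were present in 9.99% of all promoters of this length. The motif ACAATG, bound by SOX factors that act in arterial and lymphatic specification, was present in 10.7% of them. The motif TGGGAA, bound by the Notch effector RBPJ, was present in 21.6% of all promoters. A TATA box with the letters TATAAA was held by 12.4% of promoters and the E-box CACGTG, bound by Hey factors among others, by 6.02%. The window before *Sema3d* thus held none of the 7 motifs. The G and C content was 46.8% before *Sema3d*, 60.4% before *Sema3g* and 66.4% before *Sema7a*, against a median of 52.4% over all promoters.

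Transcripts of several ligands differed between LECs and BECs. Of the 10 genes, 8 passed the test between both classes, 4 of them higher in LECs and 4 higher in BECs, where 26.4% of the 17587 genes tested were called (edgeR's quasi-likelihood test with mouse as a block, adjusted p under 0.05). The largest differences were those of *Sema3a* and *Sema3d*, higher in LECs, and of *Sema3g* and *Sema7a*, higher in BECs. For these 4 ligands the lowest mouse of one class lay above the highest mouse of the other.

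*Sema3a*, a repulsive ligand of neuropilin-1, had 88.1 and 85.4 CPM in the LECs of controls 1 and 2 and 161.6, 216.5, 258.8, 256.7 and 425 CPM in those of mutants 1 to 5. In BECs it had 2.18 and 2.02 CPM in the controls and 5.25, 18.6, 9.13, 3.14 and 19.6 CPM in the mutants. It was thus higher in LECs in 7 of 7 mice, with a log2 fold change of 4.96 (SE 0.32, edgeR adjusted p = 8.54e-06). *Sema3d*, another secreted ligand of the class, reached 186.4 and 166.8 CPM in control LECs and 297.3, 305.4, 329.3, 310.1 and 278.5 CPM in mutant LECs. Its BEC levels were 7.34 and 3.54 CPM in the controls and 30.2, 8.63, 13.0, 15.2 and 9.83 CPM in the mutants. The difference was again seen in 7 of 7 mice and came to a log2 fold change of 4.64 (SE 0.26, edgeR adjusted p = 4.58e-06). *Sema3a* and *Sema3d* are neighbours in the family on GRCm38 chromosome 5, at positions 13125414 to 13602565 and 12383385 to 12588948, both on the plus strand. The class 3 genes *Sema3e* and *Sema3c* did not share this level: *Sema3e* stayed at 0.0171 to 0.0724 CPM and *Sema3c* at 0.353 to 3.42 CPM in LECs.

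*Sema3f*, the neuropilin-2 ligand, was found in both classes. It ranged from 111.4 to 301.8 CPM in LECs with a median of 174.7, and from 64.4 to 148.8 CPM in BECs. It was higher in LECs of 7 of 7 mice, although the ranges over mice overlapped, with a log2 fold change of 0.84 (SE 0.07, edgeR adjusted p = 2.74e-05). *Sema6a* had 162.5 to 444.6 CPM in LECs and 116.3 to 191.7 CPM in BECs and was higher in LECs of 6 of 7 mice. Its log2 fold change of 0.50 (SE 0.18) did not pass in edgeR (adjusted p = 0.0687) and did in DESeq2 (adjusted p = 0.0356).

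*Sema3g*, known from arterial endothelium, had 56.2 and 40.1 CPM in the BECs of controls 1 and 2 and 30.2, 22.0, 13.3, 45.8 and 31.5 CPM in those of mutants 1 to 5. In LECs it had 6.57 and 0.109 CPM in the controls and 0.213, 2.05, 0.0683, 0.154 and 0.227 CPM in the mutants. The log2 fold change was −6.49 (SE 0.89, edgeR adjusted p = 0.000605). The LECs of control 1 stood apart in this gene, and also in *Nrp1*, which encodes neuropilin-1 and had 51.1 CPM there and 4.64 to 8.61 CPM in the LECs of the other mice. When LECs had to show at least 3 times the LEC marker sum of their BEC marker sum, *Sema3g* in control 1 went from 6.49 to 0.880 CPM of the unscaled sum, while *Nrp1* went from 50.5 to 37.6 CPM. *Sema7a* had 40.0 and 55.6 CPM in control BECs and 9.18, 35.5, 22.2, 16.0 and 20.8 CPM in mutant BECs. In LECs it did not exceed 1.14 CPM in any mouse, and the log2 fold change was −5.75 (SE 0.36, edgeR adjusted p = 7.02e-06).

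**Figure D1:**
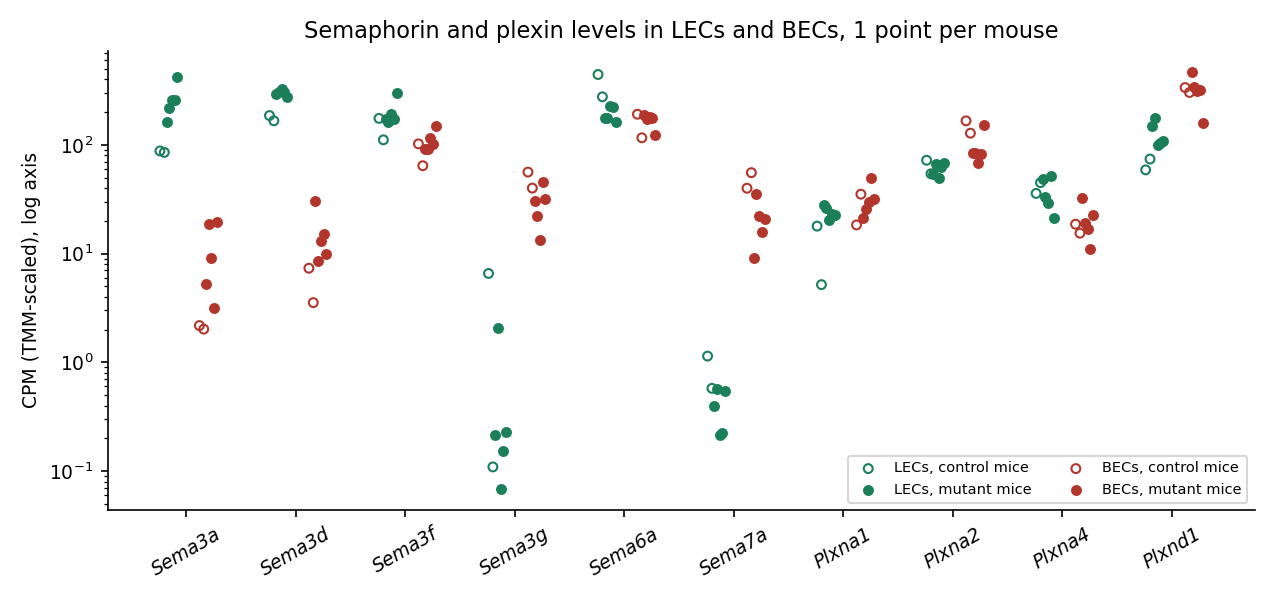
CPM after TMM scaling (log axis) of the 10 genes in LECs (green) and BECs (red), with 1 point per mouse, open for the 2 control and filled for the 5 mutant mice. *Sema3a* and *Sema3d* lie above 80 CPM in all LEC sums and at or below 30.2 CPM in all BEC sums, and *Sema3g* and *Sema7a* lie higher in BECs without overlap.

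The log2 fold changes of the plexins, from −1.56 to 0.97, were smaller in size than those of *Sema3a*, *Sema3d*, *Sema3g* and *Sema7a* and spanned a range that also held *Sema3f* and *Sema6a*. *Plxnd1*, the receptor that also binds Sema3e without a neuropilin, had 337.2 and 303.8 CPM in control BECs and 472.7, 338.0, 311.6, 317.5 and 157.6 CPM in mutant BECs. In LECs it had 59.0 and 74.2 CPM in the controls and 149.0, 177.8, 99.9, 103.9 and 108.1 CPM in the mutants. BECs were higher in 7 of 7 mice, with a log2 fold change of −1.56 in LECs (SE 0.22, edgeR adjusted p = 0.000658). *Plxna2*, a receptor for Sema6a and, with neuropilins, for class 3 ligands, was also lower in LECs of 7 of 7 mice, with 49.3 to 72.3 CPM against 68.6 to 166.6 CPM (log2 fold change −0.78, SE 0.14, edgeR adjusted p = 0.00337). *Plxna4*, which pairs with neuropilin-1 in the response to Sema3a, was higher in LECs of 6 of 7 mice, with 21.3 to 51.5 CPM against 11.0 to 32.4 CPM in BECs (log2 fold change 0.97, SE 0.26, edgeR adjusted p = 0.0222). This call was lost without control 2 (adjusted p = 0.0624) or without mutant 2 (adjusted p = 0.0528). *Plxna1* had 5.18 to 27.8 CPM in LECs and 18.4 to 49.5 CPM in BECs, a log2 difference of −0.60 (SE 0.35, edgeR adjusted p = 0.253), and 10.7% of its exon bases are shared with the predicted gene *Gm26811*.

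**Figure D2:**
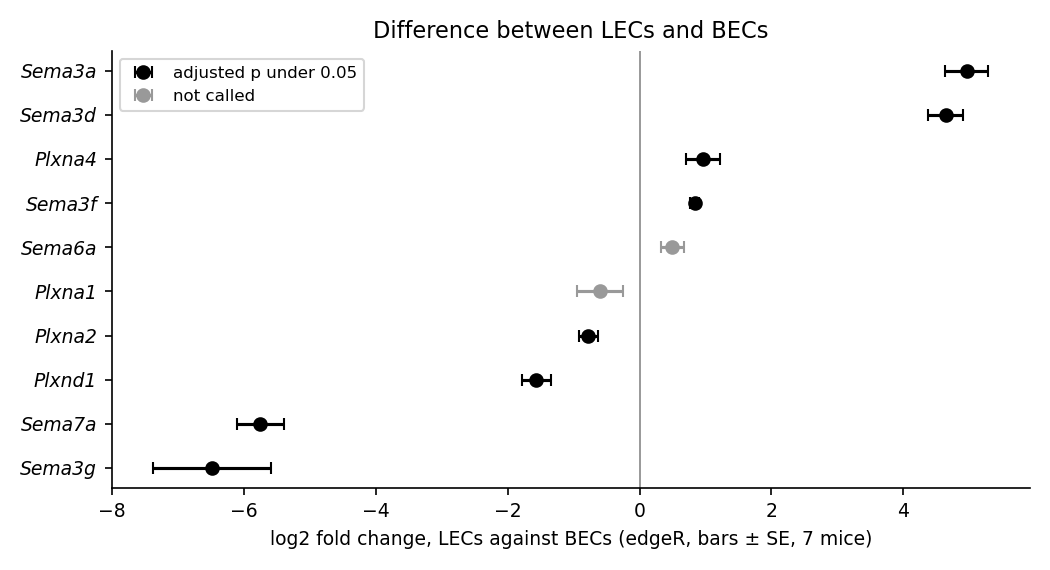
Log2 fold changes of LECs against BECs with their SE from edgeR over 7 mice, ordered by value, black where the adjusted p was under 0.05. *Sema3a* and *Sema3d* stand at 4.96 and 4.64 and *Sema3g* and *Sema7a* at −6.49 and −5.75, whereas all 4 plexins lie between −1.56 and 0.97.

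Levels were set against each other per kilobase of exon. In LECs the order by the median over 7 mice was *Sema3d* (34.6 CPM per kb), *Sema3f* (33.6), *Sema6a* (25.7), *Sema3a* (15.6), *Plxnd1* (14.2), *Plxna2* (3.66), *Plxna4* (2.54), *Plxna1* (2.48), *Sema7a* (0.164) and *Sema3g* (0.0469). Only the steps from *Plxnd1* to *Plxna2* and from *Plxna1* to *Sema7a* separated neighbours whose ranges over mice did not overlap. In BECs *Plxnd1* came first (43.5 CPM per kb), followed by *Sema6a* (20.2), *Sema3f* (19.7), *Sema3g* (6.94) and *Sema7a* (6.74), and *Sema3d* (1.14) and *Sema3a* (0.378) came last. Neighbours in the BEC order overlapped in every case. Both classes had *Plxnd1* as the most abundant of these plexins by this measure. The leading ligand varied between mice of a class. In LECs it was *Sema3d* in mutants 1 to 4, *Sema3f* in mutant 5 (58.1 CPM per kb) and *Sema6a* in controls 1 and 2 (50.7 and 31.6 CPM per kb). In BECs it was *Sema6a* in 4 of 7 mice, *Sema3f* in 2 and *Sema7a* in control 2 (16.9 CPM per kb).

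The share of cells with a read was taken after each cell had been thinned to 50000 reads. *Sema3d* was found in 82.0% ± 3.3 (SD, n = 5) of mutant LECs and 16.8% ± 10.3 of mutant BECs, and *Sema3a* in 68.1% ± 11.7 and 14.8% ± 8.4. *Sema3g* was found in 0.708% ± 0.534 of mutant LECs and 11.0% ± 3.5 of mutant BECs, and *Sema7a* in 1.25% ± 0.53 and 15.5% ± 4.0. In BECs of controls 1 and 2 the shares were 28.3% and 17.8% for *Sema3g* and 16.4% and 33.1% for *Sema7a*. In the reads as deposited, *Sema3g* was found in 50.9% and 20.4% of these control BECs and in 10.0% to 23.0% of mutant BECs, so that the share moved with depth. *Plxnd1* was found in 78.1% ± 12.9 of mutant BECs and 53.2% ± 5.8 of mutant LECs. In control 1, 7.65% of thinned LECs had a *Sema3g* read. In control 2 none of 175 did at this depth, which allows a share of up to 1.71% of cells with a read in 50000, whereas 7 of the 175 (4.0%) had one in the reads as deposited. Reads carry no molecular barcodes, so such limits cover counting error only.

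Neuropilins, the co-receptors of the class 3 ligands, showed an opposite pair. *Nrp1* had 441.1 to 961.8 CPM in BECs and was lower in LECs with a log2 fold change of −6.64 (SE 0.50, edgeR adjusted p = 1.76e-05). *Nrp2* had 249.9 to 974.1 CPM in LECs and was higher there with a log2 fold change of 1.78 (SE 0.17, edgeR adjusted p = 7.12e-05). LECs thus carried the transcripts of Sema3a and Sema3d with little *Nrp1* and much *Nrp2*. Among the 6 of 7 other plexins and neuropilins that were tested, 2 were called higher and 2 lower in LECs, with a median log2 fold change of 0.49 against 0.02 over all genes tested. *Plxnb2*, a receptor of class 4 ligands, was the second lower gene (−1.73, SE 0.20, edgeR adjusted p = 0.000196). Of the 14 other semaphorins, 12 were tested, 1 was called higher and 2 lower, with a median of −0.40. *Sema4d* was the higher one, with 47.2 to 98.2 CPM in LECs and 1.19 to 11.5 CPM in BECs (log2 fold change 4.43, SE 0.43, edgeR adjusted p = 7.35e-05), and *Sema6b* (−1.02, SE 0.22, edgeR adjusted p = 0.00831) and *Sema6d* (−0.86, SE 0.19, edgeR adjusted p = 0.00835) were the lower ones. Of 32 co-receptor and signalling genes, 31 were tested, 12 were called higher and 2 lower in LECs, with a median of 0.28. The 5 largest were *Crmp1* (log2 fold change 3.52), a collapsin response mediator that relays Sema3a signals to microtubules, *Mical2* (2.53) and *Mical3* (1.46), whose family of oxidoreductases acts on actin downstream of plexins, *Farp1* (1.77), which encodes a guanine nucleotide exchange factor, and *L1cam* (1.73), a cell adhesion molecule that binds neuropilin-1.

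Within BECs, *Sema3g* marked the arterial cells. It was the 1 gene of the 10 that was called between arterial and other BECs, where 2.31% of the 14551 genes tested were called. Arterial BECs had 304.3 and 213.4 CPM in controls 1 and 2 and 163.5, 258.4, 115.7, 323.1 and 146.3 CPM in mutants 1 to 5. The other BECs had 22.9 and 18.8 CPM in the controls and 22.1, 9.46, 6.36, 31.3 and 17.0 CPM in the mutants. The lowest arterial sum lay above the highest sum of the other BECs, in mice of both groups. The log2 fold change was 3.64 (SE 0.30, edgeR adjusted p = 0.000305), whereas the median of all genes tested was −0.44. After thinning, 52.7% ± 13.5 (SD, n = 5) of arterial BECs of mutant mice had a *Sema3g* read. Other arterial markers that were not used in the rule (*Gja4*, *Hey1*, *Sox17*, *Cxcl12*, *Efnb2*, *Bmx*, *Dll4*) summed to 4186 to 6707 CPM in arterial and 1560 to 4790 CPM in other BECs, so that the ranges overlapped. Within every mouse the arterial sum was the higher of the pair. Mural markers (*Pdgfrb*, *Rgs5*, *Acta2*, *Kcnj8*, *Cspg4*) summed to 219.2 and 414.4 CPM in arterial BECs of the controls and 125.1 to 1917 CPM in those of the mutants, against 15.3 to 710.2 CPM in other BECs. Fibroblast markers summed to 1892 and 27.8 CPM in arterial BECs of controls 1 and 2 and to at most 219.9 CPM in those of the mutants. In other BECs they came to 610.7 and 612.3 CPM in the controls and 12.9 to 40.5 CPM in the mutants. The part of either cell type in the result was not tested.

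The other members did not separate arterial cells in edgeR. *Sema7a* had 17.1 and 58.6 CPM in arterial BECs of the controls and 38.3, 55.6, 160.4, 52.2 and 46.2 CPM in those of the mutants, and was higher than in other BECs in 6 of 7 mice (log2 fold change 1.32, SE 0.63, edgeR adjusted p = 0.328). *Plxnd1* ranged from 116.0 to 504.0 CPM in arterial and from 152.1 to 443.6 CPM in other BECs and was higher in the arterial cells of 4 of 7 mice. The differences of *Sema3a* (−1.98, SE 0.88), *Sema3d* (−2.23, SE 0.83) and *Plxna4* (−2.34, SE 0.83) on the log2 scale did not pass in edgeR, with adjusted p-values of 0.292, 0.201 and 0.177. *Sema3f*, the other member called higher in LECs, was higher in arterial BECs of 4 of 7 mice and had an edgeR adjusted p of 0.988. DESeq2 called *Sema3a*, *Sema3d*, *Plxna4* and *Sema3g*, where it called 18.3% of all genes tested. Arterial sums of *Sema3a* were at most 10.6 CPM and those of *Sema3d* at most 13.0 CPM. None of the tested genes of the other semaphorins, the other plexins and neuropilins and the signalling list was called (0 of 7, 0 of 4 and 0 of 30 in edgeR), with 2, 3 and 8 of them at an unadjusted p under 0.05, as were 16.5% of all genes tested.

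**Figure D3:**
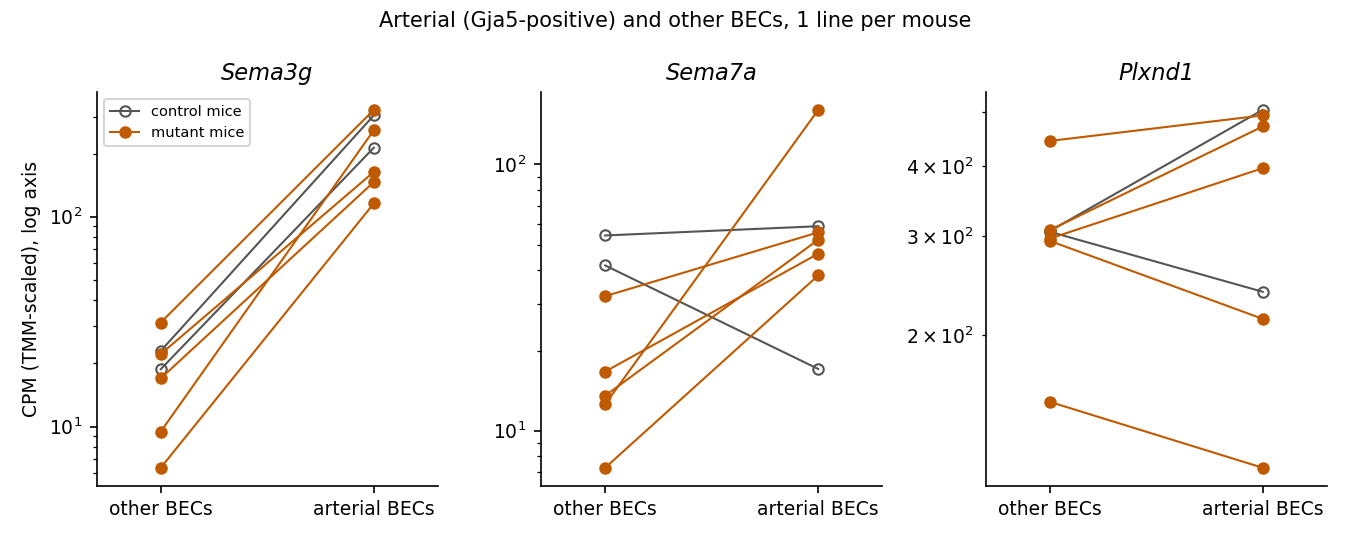
CPM after TMM scaling (log axes that do not start at 0) of *Sema3g*, *Sema7a* and *Plxnd1* in other and arterial BECs, with 1 line per mouse, grey and open for control and orange for mutant mice. All 7 lines of *Sema3g* rise from at most 31.3 to at least 115.7 CPM, and lines of *Plxnd1* go in both directions.

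In LECs of mutant mice, *Sema3d* was higher than in those of control mice and was the 1 gene of the 10 called in edgeR, where 2.76% of the 19758 genes tested were called. Its levels of 278.5 to 329.3 CPM in mutant LECs all lay above the 166.8 and 186.4 CPM of the controls, with a mean of 304.1 ± 18.5 CPM (SD, n = 5) in mutants. The log2 fold change was 0.80 (SE 0.13, edgeR adjusted p = 0.0204). The call was weak and held in 12 of 19 alternatives. Among others, it was lost without either control mouse (edgeR adjusted p = 0.0564 without control 1 and 0.0678 without control 2). It was also lost without mutant 3 (0.0613) or mutant 4 (0.0556), and without *Ptx3*-positive LECs (0.108). The log2 fold change stayed between 0.70 and 0.91 in all 19 alternatives. The plate number series separates mutants 1 to 4 from mutant 5 and both controls. With it as a block the genotype effect rests on mutant 5 against the controls, and the log2 fold change was 0.70. DESeq2 called 4 of the 10 members in this comparison, where it called 12.5% of all genes tested.

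*Sema3a* was higher in LECs of every mutant than of either control mouse but missed the threshold in edgeR. The mutant values of 161.6 to 425 CPM did not overlap the control values of 85.4 and 88.1 CPM, and the log2 fold change was 1.63 (SE 0.36, edgeR adjusted p = 0.0552). The alternatives that called it were 5 of 19, among them DESeq2 (adjusted p = 4.02e-05) and edgeR without mutant 1 (0.0448) or without mutant 5 (0.0309). With the plate number series as a block, where the effect rests on mutant 5 against the controls, the log2 fold change was 2.33. After thinning, 68.1% ± 11.7 of mutant LECs had a *Sema3a* read against 32.2% in control 1 and 38.9% in control 2. *Sema6a* went the other way, with 176.2, 178.5, 228.7, 225.4 and 162.5 CPM in mutants 1 to 5 and 444.6 and 277.2 CPM in the controls. The groups did not overlap, but the controls also lay far apart, and the log2 fold change of −0.88 (SE 0.21) had an adjusted p of 0.0678 in edgeR and 0.00412 in DESeq2, and of 0.0426 without control 2.

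Among the receptors, *Plxnd1* had 99.9 to 177.8 CPM in mutant LECs and 59.0 and 74.2 CPM in control LECs, without overlap. The log2 fold change was 0.95 (SE 0.26), with an adjusted p of 0.0926 in edgeR and 0.00965 in DESeq2. The BEC markers *Plvap*, *Ly6c1*, *Cd34* and *Ptprb* summed to 854 and 1055 CPM in control and 1106 to 1417 CPM in mutant LECs. Their part in the difference of *Plxnd1* was not tested. *Plxna1* had 27.8, 26.3, 20.5, 23.1 and 22.5 CPM in the mutants and 17.9 and 5.18 CPM in the controls, a log2 fold change of 1.07 (SE 0.45, edgeR adjusted p = 0.233) that became 2.25 (adjusted p = 0.0448) without control 1. *Sema3f* differed by 0.51 on the log2 scale (SE 0.30, edgeR adjusted p = 0.372). For *Plxna2* and *Plxna4* the groups overlapped, with 49.3 to 68.4 against 54.3 and 72.3 CPM and 21.3 to 51.5 against 35.8 and 45.0 CPM. In all, 6 of the 10 members had groups of mice that did not overlap in LECs, 4 with the mutants above and 2 (*Sema6a* and the barely detected *Sema7a*) below, where 25.5% of all genes tested did not overlap.

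**Figure D4:**
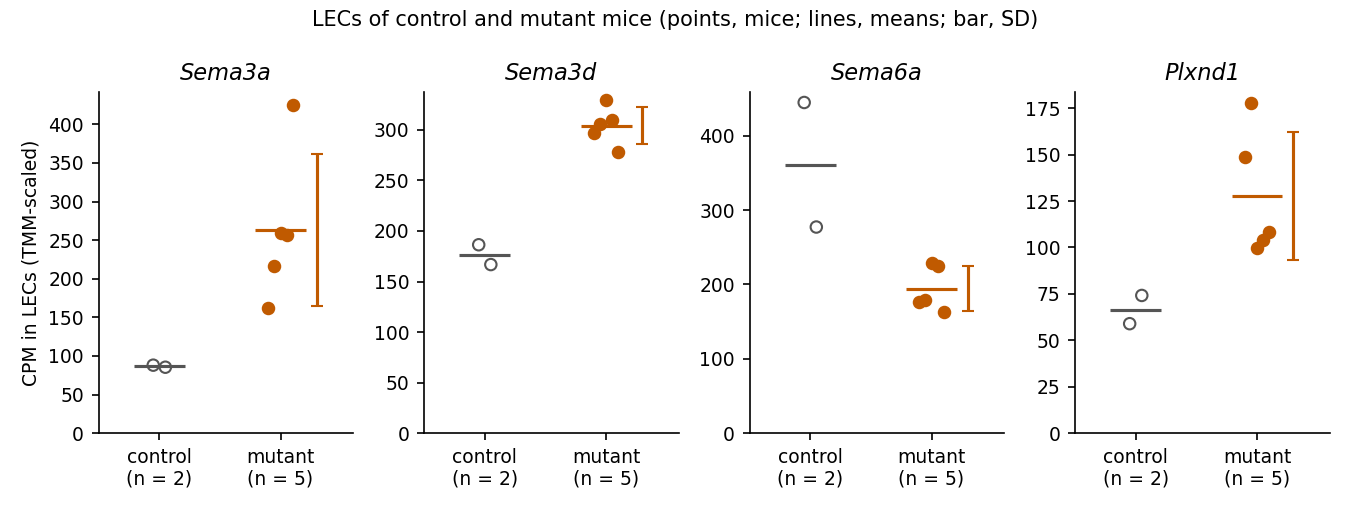
CPM after TMM scaling of 4 genes in LECs of 2 control (open) and 5 mutant (filled) mice, with the mean of each group as a line and the SD of the mutant mice as a bar. In all 4 panels the groups do not overlap, with mutants above the controls for *Sema3a*, *Sema3d* and *Plxnd1* and below them for *Sema6a*.

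The groups also differed in other respects. Fibroblast markers (*Col1a1*, *Col1a2*, *Pdgfra*, *Dcn*, *Lum*) summed to 183.7 and 386.0 CPM in control LECs and 16.2 to 104.0 CPM in mutant LECs, with none of the 5 at 0. Cell cycle transcripts (*Mki67*, *Top2a*, *Cdk1*) summed to 25.2 and 31.4 CPM in control and 151.6 to 313.2 CPM in mutant LECs. Mural markers summed to 108.0 and 145.0 CPM in control and 41.7 to 71.3 CPM in mutant LECs. The part of these other cell types in the results was not tested. When cycling cells were left out, 90 of 19282 genes were called in place of 546 of 19758. *Sema3d* kept its call in that fit (log2 fold change 0.89, adjusted p = 0.0414), and *Sema3a* had an adjusted p of 0.0899. Controls and mutants 1 to 4 carried plate numbers of different series, so genotype and series cannot be told apart for these mice.

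In the pathway lists, *Nrp2* was called higher in mutant LECs, with 249.9 and 447.1 CPM in the controls and 793.2, 857.4, 922.6, 974.1 and 752.5 CPM in the mutants (log2 fold change 1.32, SE 0.23, edgeR adjusted p = 0.0270). The call held in 11 of 19 alternatives and was lost without control 1, without mutant 2, 3 or 4, without *Ptx3*-positive LECs, without cycling cells (adjusted p = 0.0571) and with the plate number series as a block, while the log2 fold change stayed between 0.82 and 1.80 in all 19. *Nrp2* was the only call among the 7 other plexins and neuropilins tested, and none of 12 other semaphorins was called, with 1 at an unadjusted p under 0.05, as were 20.1% of all genes tested. Of 31 co-receptor and signalling genes tested, 5 were called higher and 1 lower, with a median of 0.41 against −0.01 over all genes tested. The largest were *Crmp1* (log2 fold change 3.39, SE 0.51), with 3.73 and 4.87 CPM in control and 23.6 to 70.8 CPM in mutant LECs, *L1cam* (2.13, SE 0.42), *Dpysl3* (1.96, SE 0.19), another collapsin response mediator, *Rras2* (1.38, SE 0.25), which encodes a small GTPase of the R-Ras group, and, lower, *Arhgef11* (−1.19, SE 0.25), which encodes an exchange factor that binds B-class plexins. The sixth was *Itgb1*, the integrin partner of Sema7a, at 0.84 (SE 0.13). *Dpysl3* stayed called in 17 of 19 alternatives, *Crmp1* in 14 (not without control 1 or control 2), *Itgb1* in 12 (not without either control, mutant 3 or mutant 4), *L1cam* in 10 (not without control 2 or mutants 2, 3 or 4), *Rras2* in 10 (not without either control or mutants 1, 3 or 4) and *Arhgef11* in 4, with no change of sign in any of them. None of these 6 genes stayed called without *Ptx3*-positive LECs, a fit that called 11 genes in all. *Crmp1*, *L1cam*, *Rras2* and *Arhgef11* also lost their calls without cycling cells, and *L1cam*, *Rras2*, *Arhgef11* and *Itgb1* with the plate number series as a block. *L1cam* lost it as well when LECs had to show a margin of 3 times between class markers.

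In BECs no member was called between mutant and control mice, where 2.12% of the 19315 genes tested were called. In edgeR 3 of the 10 had an unadjusted p under 0.05, as did 19.6% of all genes tested, and DESeq2 called 1 of them, *Sema3a*, where it called 11.6% of all genes. Both counts were near these shares. *Sema3a* had a log2 fold change of 2.42 (SE 0.85, edgeR adjusted p = 0.174) and *Sema3d* one of 1.49 (SE 0.61, edgeR adjusted p = 0.228), both at levels of at most 30.2 CPM. LEC markers in the same sums came to 57.8 and 162.9 CPM in control and 39.9 to 235.7 CPM in mutant BECs, and their part in these values was not tested. Other marker sums in BECs did not overlap between the groups. The arterial markers came to 4828 and 5080 CPM in control and 2069 to 2685 CPM in mutant BECs, and venous markers (*Nr2f2*, *Ackr1*, *Selp*, *Vwf*, *Ephb4*) to 1120 and 1760 against 2623 to 3616 CPM. Fibroblast markers summed to 559.9 and 775.3 against 13.3 to 42.8 CPM, mural markers to 313.4 and 671.3 against 36.2 to 200.4 CPM, and cell cycle transcripts to 4.27 and 9.46 against 37.6 to 228.4 CPM. *Sema7a* lay at 9.18 to 35.5 CPM in mutant and 40.0 and 55.6 CPM in control BECs without overlap, with a log2 fold change of −1.19 (SE 0.44, edgeR adjusted p = 0.194). *Sema3g* had a log2 fold change of −0.75 (SE 0.41, edgeR adjusted p = 0.348), and its groups overlapped. Without arterial BECs the values were −0.23 for *Sema3g* (SE 0.56, adjusted p = 0.849) and −1.48 for *Sema7a* (SE 0.49, adjusted p = 0.146). In 3 members the groups of mice did not overlap, *Sema3a* and *Sema3d* above and *Sema7a* below the controls, where 25.1% of all genes tested did not.

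Among the pathway genes, BECs of mutant mice had higher *Sema5b* (2.05 and 3.26 CPM in the controls and 15.9 to 33.7 CPM in the mutants, log2 fold change 3.07, SE 0.47, edgeR adjusted p = 0.0182). *Mras* (1.97, SE 0.23) and *Dpysl3* (1.79, SE 0.21) were also higher, both with an edgeR adjusted p of 0.00743. *Sema5b* lost its call without control 1, without control 2 and without cycling cells (adjusted p = 0.0570). *Dpysl3* and *Mras* kept theirs without any single mouse, and *Dpysl3* lost its call with the plate number series as a block. No other plexin or neuropilin was called, with 3 of 6 at an unadjusted p under 0.05.

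Whether the mutant effect differed between LECs and BECs was tested as an interaction, in which no member was called and 0.187% of the 21927 genes tested were. In edgeR 3 of the 10 had an unadjusted p under 0.05, as did 11.5% of all genes tested. *Sema6a*, lower in mutant LECs and at 123.8 to 188.2 CPM in mutant against 191.7 and 116.3 CPM in control BECs, came closest, with a difference of −1.04 on the log2 scale (SE 0.18, edgeR adjusted p = 0.0862), and was the 1 member called by DESeq2 (4.81e-05), where 5.65% of all genes were called. *Plxnd1* had a difference of 0.98 (SE 0.35, edgeR adjusted p = 0.331) and *Plxna2* one of 0.60 (SE 0.24, edgeR adjusted p = 0.396). For *Sema3a* and *Sema3d* the effects in both classes pointed the same way, and their differences had adjusted p-values of 0.837 and 0.703.

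**Figure D5:**
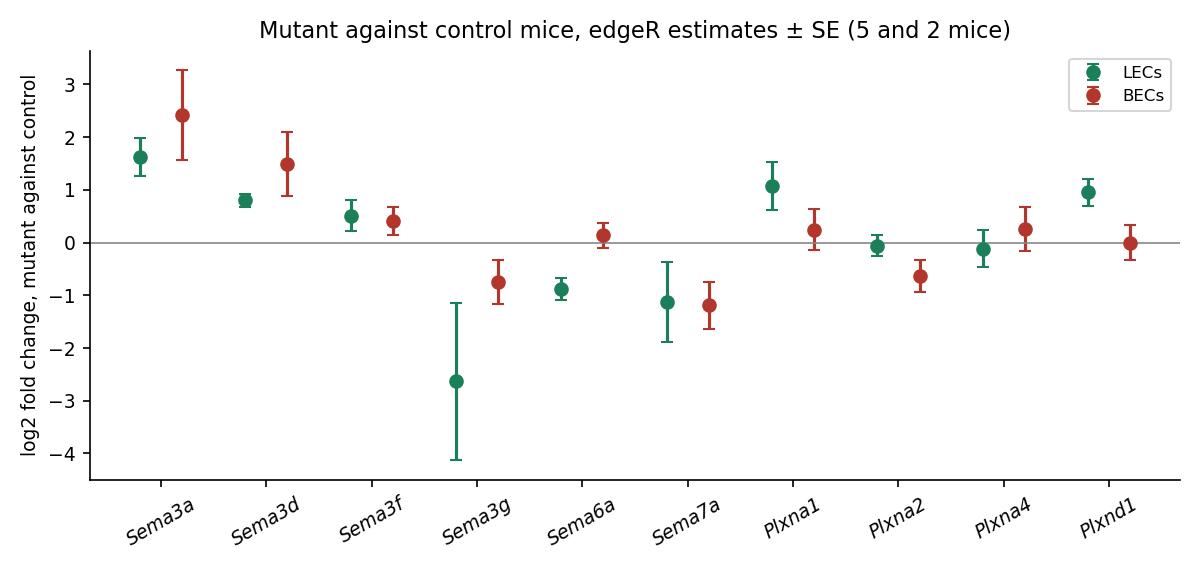
Log2 fold changes of mutant against control mice with their SE from edgeR (5 and 2 mice) in LECs (green) and BECs (red). *Sema3a* and *Sema3d* lie above 0 in both classes, *Sema6a* lies at −0.88 in LECs and close to 0 in BECs, and the estimate for *Sema3g* in LECs rests on sums of 7 to 363 reads.

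In arterial BECs no member and no other gene was called between mutant and control mice by edgeR (0% of 12830 tested). None of the 10 had an unadjusted p under 0.05, against 5% of all genes tested, and DESeq2 called 216 genes (1.68%), none of them a member. *Sema3g* had 115.7 to 323.1 CPM in mutant and 213.4 and 304.3 CPM in control arterial BECs, which overlapped. With 8 to 31 cells per sum, the SE of the members' log2 fold changes ran from 0.47 to 1.86.

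LECs with at least 50 CPM of *Ptx3*, a marker of an immune-interacting capillary LEC state in this model, were compared with the other LECs of the same mouse. There were 12 and 48 such cells in controls 1 and 2 and 64, 64, 143, 77 and 177 in mutants 1 to 5. No member was called in edgeR, where 3.32% of the 15762 genes tested were called, 4 of 9 tested members had an unadjusted p under 0.05, as did 16.2% of all genes, and DESeq2 called 2, where it called 11.3% of all genes. These were *Plxnd1*, higher in *Ptx3*-positive LECs of 7 of 7 mice (log2 fold change 0.83, SE 0.20, edgeR adjusted p = 0.0566), and *Plxna4*, lower in 7 of 7 mice (−1.35, SE 0.38, edgeR adjusted p = 0.0970). *Plxnd1* had 143.5 and 146.7 CPM in the *Ptx3*-positive and 53.4 and 46.5 CPM in the other LECs of the controls, and 105.2 to 277.4 against 85.4 to 135.4 CPM in the mutants. *Sema6a* (−0.21, SE 0.09) and *Sema7a* (−1.94, SE 0.60) were the others under an unadjusted p of 0.05, with edgeR adjusted p-values of 0.249 and 0.128. *Sema3d* had similar levels in both sets of LECs, 160.0 to 343.7 and 164.8 to 317.5 CPM. Of the lists, *Nrp2* was called higher in *Ptx3*-positive LECs (1.20, SE 0.18, edgeR adjusted p = 0.00839), as were *Dpysl3* (0.82), *Itgb1* (0.52) and *Cfl1* (0.31), the actin-severing cofilin, whose call was lost without mutant 1, 2, 3 or 4.

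LECs with at least 300 CPM of *Cldn11*, a transcript of valve cells, numbered 19 to 57 per mouse. Their markers of valves (*Foxc2*, *Gata2*, *Itga9*, *Cldn11*) summed to 1827 to 2584 CPM, against 411.5 to 710.3 CPM in other LECs, although *Cldn11* itself was the rule. *Sema3d* was the 1 member called of 8 tested, where 1.42% of the 15296 genes tested were called. It had 343.2 and 232.1 CPM in *Cldn11*-high LECs of controls 1 and 2 and 385.6, 335.9, 541.3, 377.6 and 390.0 CPM in those of mutants 1 to 5. The other LECs of the same mice had 165.1, 161.4, 266.7, 294.8, 277.1, 294.8 and 258.8 CPM in that order, lower in 7 of 7 mice. The log2 fold change was 0.60 (SE 0.12, edgeR adjusted p = 0.0402), and the call was lost in 9 of the alternatives. *Sema6a* was also higher in 7 of 7 mice, by 0.32 on the log2 scale (SE 0.10, edgeR adjusted p = 0.166, DESeq2 0.0113), where DESeq2 called 11.6% of all genes. *Sema3a*, the ligand known from valve formation, was higher in 5 of 7 mice and was not called (edgeR adjusted p = 0.730), and *Plxna1* had 2.09 to 71.9 CPM in the *Cldn11*-high and 5.48 to 31.3 CPM in the other LECs. Of the pathway lists, *Kdr*, the VEGF receptor 2 gene, was called higher (0.52, SE 0.08, edgeR adjusted p = 0.0148), though not without mutant 1, 4 or 5.

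Genes with the most similar pattern were sought over 21 sums, those of LECs, arterial BECs and other BECs of each mouse, among 9291 genes. The values are a description, since sums of 1 class share most of their expression. *Sema3d* was most like *Pcsk6* (Pearson r = 0.98), *Nkd1* (0.97) and *Prkcz* (0.97), and *Sema3a* most like *Susd2* (0.96), *Ackr2* (0.96) and *Nkd1* (0.96). *Sema3g* was most like *Atp2a3* (0.97), *Abr* (0.95) and *Egfl8* (0.95), and *Sema7a* most like *Heg1*, *Dusp26* and *Myo10* (all 0.95). Likeness was lower for the plexins, with *Rftn2* (0.92) first for *Plxna4*, *Ino80e* (0.85) for *Plxna1*, *Stk10* (0.85) for *Plxnd1* and *Timp4* (0.75) for *Plxna2*. For *Sema6a* and *Sema3f* the first genes were *Sned1* (0.87) and *Capn2* (0.86).

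The 117 cells that reached neither class rule held markers of other cell types, with *Krt5* at 2011, *Col1a2* at 1095 and *Rgs5* at 981.7 CPM of their summed reads, together with endothelial transcripts (*Pecam1* 846.9, *Cldn5* 598.5 and *Cdh5* 181.6 CPM). They were thus a mixture, and the member levels cannot be assigned to 1 cell type. *Plxnd1* (139.4 CPM), *Sema3f* (78.4), *Sema3d* (76.9) and *Plxna2* (70.0) were present in these summed reads, and *Sema3a* (3.59), *Plxna4* (4.33) and *Sema7a* (4.99) were near the low end of the members.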

How the data were processed

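Smart-Seq2 reads of single cells sorted into 384-well plates came from 5 mutant and 2 control mice. The deposited files hold raw read counts per gene and well: the authors aligned reads to GRCm38 with TopHat2 2.1.1, removed duplicate reads with SAMtools 0.1.18 and counted reads per gene with featureCounts, and a second deposited file gives the exon length of each gene. The annotation version is not given in the sources used here. A plate of 384 wells held 99969650 to 151812175 reads, spike-ins included. A cell needed 50000 reads, 200 detected genes and no more than 10% of reads from mitochondrial genes, and doublets were not called. Symbols and positions came from GENCODE vM21.

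Reads were summed per mouse and class, with at least 5 cells per sum, and tested with the quasi-likelihood F test of edgeR 4.0.16 in R 4.3.3, after filterByExpr and TMM scaling, with Benjamini-Hochberg adjustment over all genes tested. DESeq2 1.42.0 was an alternative. The model code was tested on simulated data. LEC and BEC sums of a mouse were blocked by mouse. Genes used in a class rule were left out of the tests of that class. CPM are after TMM scaling unless said otherwise. Promoters were taken from RefSeq, which had an entry for 6 of the 10 members. Likeness used log2(CPM + 1). Figures were drawn with matplotlib 3.10.9.

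The members, lists, class limits and alternatives were chosen with earlier results of these data known. Named are the 10 members and, per list and comparison, at most 5 called genes of largest log2 fold change (mean log2 CPM 3 or more), and the 3 genes most like each member, of which the first or all are given. *Sema3e*, *Sema3c* and *Nrp1* beside control 1 were named after their values were seen. Alternatives were DESeq2, edgeR scaled by DESeq2 size factors, tests without a filter on low counts, leaving out each mouse, thinned cells, other limits on reads and markers, first plates only, blocks by replicate number or plate series, and sums without *Ptx3*-positive, cycling or arterial cells. The numbers of mutant and control mice are only names, so mice were not paired across groups.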

Additional observations from a re-analysis of the deposited data

Results flagged for a closer look

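In each of 30 sets of 5 mutant mice (10 genes in LECs, BECs and arterial BECs, on a log2 scale with 0.1 CPM added), the mouse farthest from its neighbours was compared with Dixon's critical value of 0.71, which chance passes in about 1 of 20 sets. Mutant 5 passed it 3 times. Its LECs had 301.8 CPM of *Sema3f*, against 163.3 to 193.4 CPM in the other mutant mice. Its BECs had 123.8 CPM of *Sema6a*, against 174.2 to 188.2 CPM, and 152.4 CPM of *Plxna2*, against 68.6 to 84.3 CPM. In mutant 2, LECs had 2.05 CPM of *Sema3g*, against 0.0683 to 0.227 CPM, and in mutant 3, arterial BECs had 160.4 CPM of *Sema7a*, against 38.3 to 55.6 CPM. In the same arterial sum of mutant 3, keratinocyte markers came to 819.3 CPM, against 0.501 to 64.1 CPM in those of the other mutants. Their part in the *Sema7a* value was not tested. Mutant 5 is the mutant mouse whose plates carry numbers of the same series as the controls, and its LECs had the highest median depth, with 488024 reads per cell against 274769 to 335017 in the other mice. The part of either in these values was not tested.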

How the results depend on the processing

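No member called in a comparison changed sign in any of its 180 alternative fits. None of the 573 alternative values for fold changes given in the report did so either, while 71 of 721 fits of the fold changes not given did. Between LECs and BECs, 8 members were called, and 7 to 9 under each alternative, where 3714 to 6148 genes were called in all. Leaving out 1 mouse at a time gave 0 to 2 members called between mutant and control LECs, where 153 to 546 genes were called in all. It gave 0 to 1 members in BECs (159 to 586 genes in all), 0 to 1 for *Ptx3*-positive LECs (220 to 964) and 0 to 1 for *Cldn11*-high LECs (102 to 202). DESeq2 called 4 members between mutant and control LECs, 1 in BECs, 1 in the interaction, 4 between arterial and other BECs, 2 for *Ptx3*-positive and 2 for *Cldn11*-high LECs, where it called 12.5%, 11.6%, 5.65%, 18.3%, 11.3% and 11.6% of all genes tested, and the cause was not tested. Thinned cells gave 2, 2 and 0 members for mutant LECs, *Ptx3*-positive and *Cldn11*-high LECs, where 534 of 15564, 672 of 13020 and 183 of 12490 genes were called. For mutant LECs, a marker limit of 100 CPM gave 2 members (715 of 20062 genes) and sums without *Ptx3*-positive LECs 0 (11 of 18615 genes). For *Ptx3*-positive LECs, first plates only (518 of 15325 genes) and a limit of 20 CPM (488 of 15656 genes) each gave 1. For *Cldn11*-high LECs, no expression filter (193 of 30424 genes) and a margin of 3 times between class markers (160 of 14922 genes) each gave 0. The mice share only numbers: with a replicate block over the mice numbered 1 and 2, 0 members were called between mutant and control LECs. That fit called 0 of all 18111 genes tested, so it does not set the members apart from other genes. *Sema3d* had a log2 fold change of 0.77 in it (edgeR adjusted p = 0.358). Shares of cells with a read moved with depth: without thinning, *Sema3a* was found in 83.3% of mutant LECs and 40.1% of mutant BECs, and *Sema3g* in 4.85% and 16.9%. With 2 control mice, genotype comparisons rest on a spread estimated mainly from the mutants. The replicate block also ended each pathway call between mutant and control mice that is named in the report. It ended all other calls too, with 0 of 18111 genes called in LECs and 0 of 17655 in BECs.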
